A study of Mus musculus with 6 samples.

Results

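The genes described here are 36 mouse genes that make, sense, take up, store or export cholesterol, out of 38828 genes in the deposited tables. They were chosen by name for their known roles, with earlier results of these data known. There are 6 groups. The synthesis groups hold 8 enzymes of the mevalonate pathway, 3 of squalene formation and use, and 9 that turn lanosterol into cholesterol. The others hold 6 genes of SREBP control, 6 of uptake, transport and storage, and 4 of the liver X receptor (LXR) and sterol export. Expression was measured by RNA sequencing of total RNA from Hepa1-6 cells, an established mouse hepatoma line, grown in high-glucose medium with serum. All cells were transfected with siRNA by Lipofectamine RNAiMAX for 3 days, 3 libraries with siRNA against Crebl2, whose product is a bZIP protein of the CREB kind, and 3 with siRNA against Renilla luciferase (Luc siRNA), a sequence that mouse cells lack. The labels do not say how many Crebl2 siRNA sequences were used or whether each library had its own culture. The p-values therefore reflect library-to-library spread, which may be technical.

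Cholesterol is built from acetyl-CoA. The mevalonate pathway yields isoprenoid diphosphates, which are joined to squalene, squalene is oxidised and folded into lanosterol, and a chain of demethylations, reductions and an isomerisation turns lanosterol into cholesterol. In mammalian cells the genes of this route are switched on together by the transcription factor SREBP2, the product of Srebf2. The SREBP2 precursor sits in the endoplasmic reticulum bound to its escort SCAP. When sterol is plentiful, INSIG proteins hold that complex there, and when it is scarce the complex moves to the Golgi, where the site-1 and site-2 proteases, encoded by Mbtps1 and Mbtps2, cut the factor free. Excess sterol acts in the opposite direction through its oxidised derivatives, which bind LXR and raise the export pumps ABCA1 and ABCG1. In the liver these arms set how much cholesterol is made, taken up from lipoproteins and passed on.

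Total counts per library ran from 27082572 to 29158489. Crebl2 itself (chr6:134830154-134858931 on GRCm38, plus strand) had 813, 826 and 896 counts in the Crebl2 siRNA libraries, against 3248, 3162 and 3041 in the Luc siRNA libraries, which left 26.9% of the level under Luc siRNA (log2 fold change -1.90, SE 0.0582, edgeR adjusted p = 2.83e-12). The exact two-sided permutation test of its log2 level gave p = 0.1, and no smaller value is possible with 3 libraries a group. Over the whole table the response was wide: of 11616 genes tested, 38.9% passed an edgeR adjusted p of 0.05, with 20.1% called lower and 18.8% called higher. The hepatocyte markers albumin (540 ± 29.5 CPM under Crebl2 siRNA and 581 ± 29.2 CPM under Luc siRNA, SD, n = 3 each), Afp and Trf were well counted, while Hnf4a, Serpina1a and Cyp3a11 had 0 counts in all 6 libraries. Counts come mainly from bases that no other transcript covers. Hnf4a has 6 such bases, Serpina1a 221 (0 in its main transcript) and Cyp3a11 2344. Of markers at 0 in the lists below, Spp1 has 7, Tek 48, Pdgfrb 126, Ptprc 429 and Col3a1 5423. Where such bases are few, a count of 0 does not show that a gene is silent. That limit does not cover Cyp3a11 or Col3a1. Other hepatocyte markers, named after their values were seen, had few counts over the 6 libraries though they have many such bases. Apob had 22 counts (13934 bases), Cps1 13 (5555), Ttr 39 (1186), Apoa1 106 (1035) and Tat 141 (2375). Foxa3 had 9389 counts (2037 bases) and Fgb 5185 (3810). Summed over the 14 hepatocyte markers the level was 1060 to 1140 CPM in Crebl2 siRNA libraries and 1120 to 1200 CPM in Luc siRNA libraries, a sum made up mostly of albumin and Afp. Of the 7 hepatocyte markers tested, 3 were called lower and 2 higher. Relative to Luc siRNA, Fgb was at 37.6%, Foxa3 at 57.0% and Trf at 74.5% under Crebl2 siRNA, while Afp was 1.28-fold and Tat 1.76-fold higher (Fgb, Foxa3 and Tat named after their values were seen). Among the markers of other cell types, the summed level of 7 fibroblast markers (5 with counts, Col3a1 and Pdgfrb at 0) was 119 to 131 CPM in Crebl2 siRNA libraries and 176 to 182 CPM in Luc siRNA libraries. For 6 macrophage markers (5 with counts, Ptprc at 0) it was 22.9 to 27.5 CPM and 36.7 to 38.6 CPM in Crebl2 siRNA and Luc siRNA libraries, and for 5 endothelial markers (4 with counts, Tek at 0) 33.1 to 37.2 CPM and 19.6 to 23.1 CPM in Crebl2 siRNA and Luc siRNA libraries. Each of these 3 sums was carried by 1 gene, named after its value was seen: Dcn (117 CPM under Crebl2 siRNA and 171 CPM under Luc siRNA), Cd14 (23.7 CPM under Crebl2 siRNA and 36.2 CPM under Luc siRNA) and Vwf (35.4 CPM under Crebl2 siRNA and 21.5 CPM under Luc siRNA). The other tested markers of these lists were not called. For 5 cholangiocyte markers (4 with counts, Spp1 at 0) the sums overlapped, at 661 to 721 CPM in Crebl2 siRNA libraries and 691 to 755 CPM in Luc siRNA libraries, with 1 called lower and 2 higher. The part of any of these markers in the results was not tested, and in bulk samples fewer cells of a type and less RNA per cell cannot be told apart. Mitochondrial transcripts took 0.859% of the counts of Crebl2 siRNA replicate 2 and 2.09 to 2.52% in the other libraries, and without that replicate 17 of the sterol genes were called lower and 5 higher.

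After Crebl2 siRNA the genes that make sterol were mostly lower and both export pumps were higher. Of the 36 genes, 31 had enough counts to be tested. Of these, 18 were called lower and 5 higher, against 20.1% and 18.8% of all tested genes, and 8 were not called. The median log2 fold change of the tested members was -0.32, and that of all tested genes was 0.005. At least 1.5-fold lower were 11 members, and 5.71% of all tested genes. The CPM (counts scaled to library depth, with TMM factors) of the groups did not overlap for 24 of the 31, against 48.8% of all tested genes, and 20 of these were lower in every Crebl2 siRNA library, against 24.9% of all tested genes. Because the members were chosen with earlier results of these data known, these shares are a description and not independent evidence. Only Mbtps1 had a log2 fold change of 1 or more in size. Counts in these tables come mainly from bases that no other transcript covers, so they cannot be read as abundance between genes, and 4 of the 5 untested members have under 200 such bases.

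**Figure D1:**
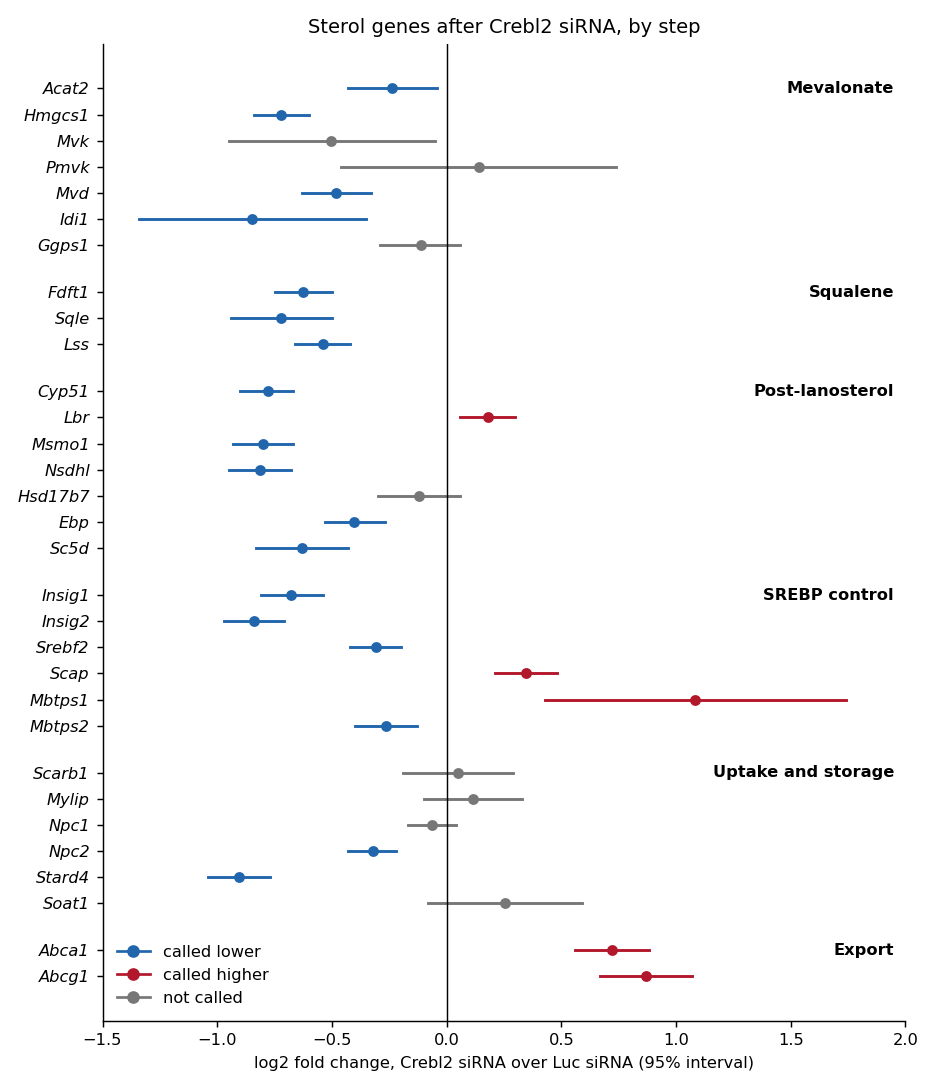
Log2 fold change (Crebl2 siRNA over Luc siRNA, 3 libraries each) of the 31 tested sterol genes by step, with lines for 95% intervals from edgeR. Genes of synthesis lie to the left of 0 except Pmvk and Lbr, and Abca1 (0.72) and Abcg1 (0.87) lie to the right.

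The mevalonate pathway was lowered at 4 of its 7 tested genes, against 20.1% of all tested genes, with a median log2 fold change of -0.48. Hmgcs1 (chr13:119690379-119708260, plus strand) encodes the cytosolic synthase that makes HMG-CoA. It had 112, 107 and 118 CPM in Crebl2 siRNA libraries, against 196, 176 and 183 CPM in Luc siRNA libraries. The groups were far apart relative to their spread, and Hmgcs1 fell to 60.7% of its Luc siRNA level (log2 fold change -0.72, SE 0.0571, edgeR adjusted p = 6.58e-08), with 14.5% of its 50-base words also in other genes, mostly Gm48342 on the opposite strand. Mvd (chr8:122433601-122443422, minus strand), the decarboxylase that makes isopentenyl diphosphate, had 29.1, 27.7 and 24.6 CPM in Crebl2 siRNA libraries, against 38.8, 37.9 and 37.2 CPM in Luc siRNA libraries. Every Crebl2 siRNA library was below every Luc siRNA library (log2 fold change -0.48, SE 0.0707, edgeR adjusted p = 4.62e-05). Acat2, the cytosolic thiolase that starts the pathway, was just past the threshold (log2 fold change -0.24, edgeR adjusted p = 0.0493) and was not called in 12 of 14 alternative analyses. In addition, 45.9% of the 50-base words in its main transcript also occur in other genes, mostly its copy Acat3.

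The isomerase gene Idi1 and the kinase gene Mvk rest on few reads. Idi1 had 20, 29 and 23 counts in Crebl2 siRNA libraries, against 42, 51 and 37 in Luc siRNA libraries, and was called lower (log2 fold change -0.85, SE 0.234, edgeR adjusted p = 0.00859). Of its words, 30.5% recur in other genes, chiefly the predicted gene Gm13502, and without Luc siRNA replicate 2 it was no longer called (edgeR adjusted p = 0.0548). Mvk had 29, 29 and 25 counts in Crebl2 siRNA libraries, against 42, 38 and 38 in Luc siRNA libraries. Its groups did not overlap, yet it missed the threshold (log2 fold change -0.50, 95% interval -0.95 to -0.05, edgeR adjusted p = 0.0718). Pmvk, the next kinase, had 19 to 23 counts in Crebl2 siRNA libraries and 15 to 25 in Luc siRNA libraries, with a log2 fold change of 0.14 (95% interval -0.46 to 0.74). Fdps, which makes farnesyl diphosphate, could not be tested: it had 0 counts in each Crebl2 siRNA library and 3, 2 and 3 in the Luc siRNA libraries, with 108 bases of its own and 86.4% of its words shared with other genes, so no fold is given. The branch gene Ggps1, whose enzyme makes geranylgeranyl diphosphate for protein prenylation rather than sterol, had 20.0, 19.9 and 23.0 CPM in Crebl2 siRNA libraries, against 24.6, 21.8 and 21.7 CPM in Luc siRNA libraries. These ranges overlap (log2 fold change -0.11, 95% interval -0.29 to 0.06, edgeR adjusted p = 0.296). Of the words of Ggps1, 11.8% recur in other genes, mostly Gm5630.

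The Hmgcs1 promoter is shown because it was the only member promoter with a match to a sterol regulatory element. The window runs from 250 bases before to 50 after the start site (RefSeq, GRCm38.p6, chr13:119690101-119690400, plus strand). In it and the promoters shown further on, capitals mark every match, on either strand, to the sterol element TCACNCCAC, the NF-Y box CCAAT, the E-box CACGTG and the CREB half-site TGACG.
Hmgcs1: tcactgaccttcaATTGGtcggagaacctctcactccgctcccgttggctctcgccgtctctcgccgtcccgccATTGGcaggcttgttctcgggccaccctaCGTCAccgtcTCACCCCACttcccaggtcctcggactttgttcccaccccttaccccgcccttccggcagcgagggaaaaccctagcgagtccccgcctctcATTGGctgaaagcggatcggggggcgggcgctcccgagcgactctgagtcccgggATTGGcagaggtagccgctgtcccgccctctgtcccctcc
Here the sterol element starts 137 bases before the start site, a half-site on the other strand starts 147 before it, and NF-Y boxes start at -237, -176, -45 and 11, all on the other strand.

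All 3 genes between farnesyl diphosphate and lanosterol fell, against 20.1% of all tested genes called lower. Fdft1, squalene synthase (chr14:63145150-63179578, minus strand), had 36.9, 34.4 and 34.7 CPM in Crebl2 siRNA libraries, against 56.1, 52.7 and 54.9 CPM in Luc siRNA libraries (log2 fold change -0.63, SE 0.0599, edgeR adjusted p = 5.03e-07). Sqle, the squalene epoxidase (chr15:59315077-59331192, plus strand), had 5.73, 6.38 and 5.55 CPM in Crebl2 siRNA libraries, against 9.96, 9.82 and 9.33 CPM in Luc siRNA libraries (log2 fold change -0.72, SE 0.103, edgeR adjusted p = 3.68e-05). Lss, which folds oxidosqualene into lanosterol (chr10:76531588-76557138, plus strand), had 64.3, 61.3 and 57.3 CPM in Crebl2 siRNA libraries, against 91.3, 86.0 and 88.9 CPM in Luc siRNA libraries (log2 fold change -0.54, SE 0.0577, edgeR adjusted p = 1.75e-06). In each gene the groups were separated by more than either group's own range, and the 3 intervals of the log2 fold change, -0.75 to -0.50, -0.94 to -0.50 and -0.66 to -0.42, overlap each other. Sqle is counted through only 122 bases of its own, and 39.8% of the words of Fdft1 lie in other genes, mostly Ctsb on the opposite strand.

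**Figure D2:**
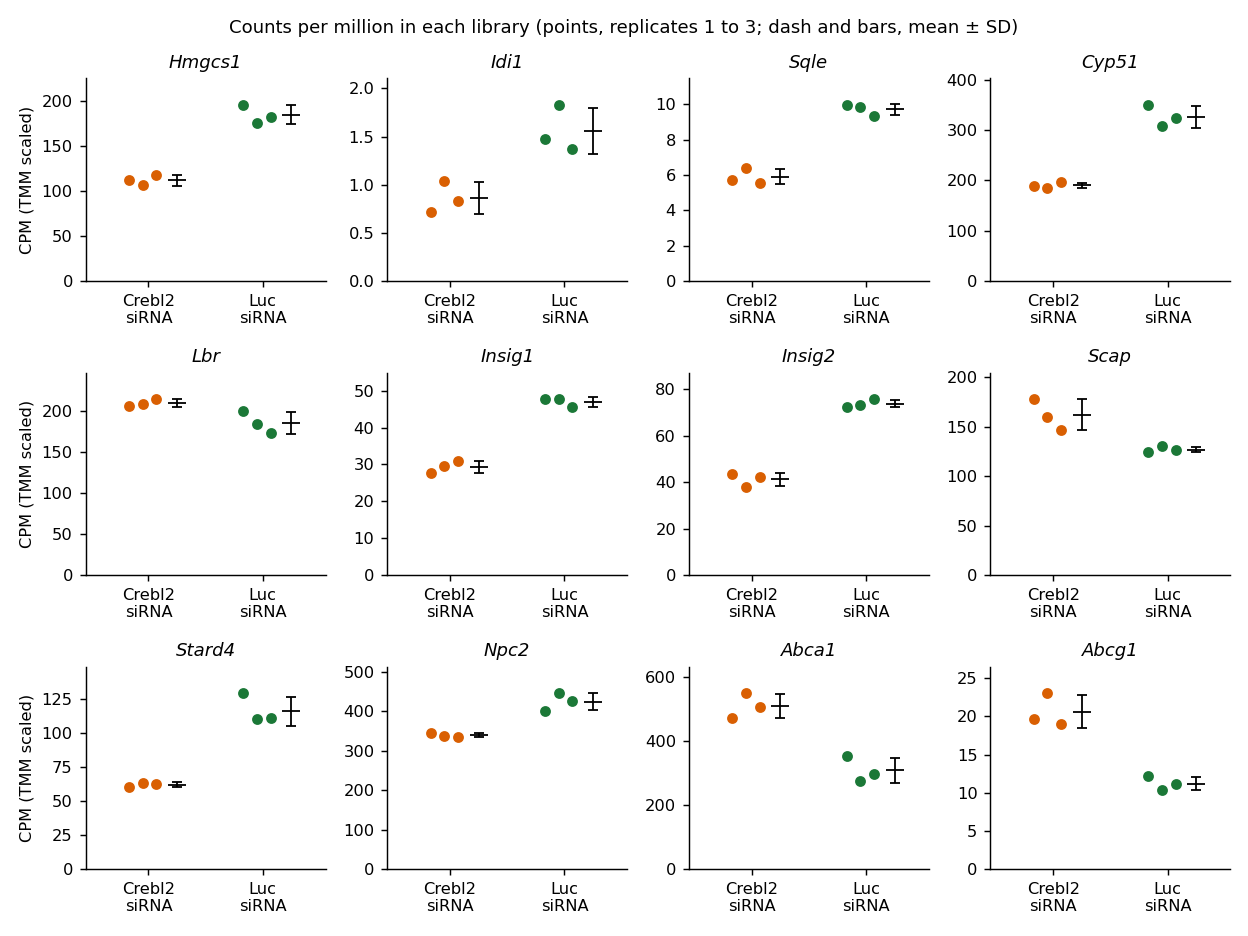
CPM (TMM scaled) of 12 sterol genes in each Crebl2 siRNA library (left) and each Luc siRNA library (right), with the mean and SD of each group. Within every panel the groups do not overlap, with Lbr, Scap, Abca1 and Abcg1 higher and the other 8 genes lower under Crebl2 siRNA.

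Beyond lanosterol, 5 of 7 tested genes fell, 1 rose and 1 was not called. Over all tested genes 20.1% were called lower and 18.8% higher. The largest falls of this step were in enzymes that remove methyl groups from the sterol nucleus. Cyp51, the lanosterol demethylase (chr5:4081145-4104746, minus strand), had 189, 185 and 196 CPM in Crebl2 siRNA libraries, against 350, 307 and 323 CPM in Luc siRNA libraries, which is 58.2% of the Luc siRNA level (edgeR adjusted p = 1.4e-08). Msmo1, the methyl sterol oxidase (chr8:64718139-64733792, minus strand), had 94.6, 93.2 and 98.4 CPM in Crebl2 siRNA libraries, against 183, 154 and 161 CPM in Luc siRNA libraries, or 57.5% (edgeR adjusted p = 4.79e-08). Nsdhl, the dehydrogenase of the same demethylation (chrX:72918557-72958514, plus strand), had 28.4, 28.0 and 27.3 CPM in Crebl2 siRNA libraries, against 52.1, 46.7 and 48.1 CPM in Luc siRNA libraries, or 56.9% (edgeR adjusted p = 6.18e-08). For all 3 the Crebl2 siRNA libraries lay close together, and Luc siRNA replicate 1 was the highest library. Hsd17b7, the ketoreductase that completes that step, had 19.2, 18.8 and 17.8 CPM in Crebl2 siRNA libraries, against 22.2, 18.1 and 20.3 CPM in Luc siRNA libraries. Its ranges overlap and it was not called (log2 fold change -0.12, 95% interval -0.30 to 0.06, edgeR adjusted p = 0.282).

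The later enzymes moved less evenly. Ebp, the isomerase that shifts the nuclear double bond, had 48.0, 45.1 and 44.7 CPM in Crebl2 siRNA libraries, against 58.3, 64.8 and 59.2 CPM in Luc siRNA libraries (log2 fold change -0.40, SE 0.0612, edgeR adjusted p = 6.89e-05). Sc5d, the desaturase near the end of the route, had 9.09, 7.96 and 9.77 CPM in Crebl2 siRNA libraries, against 14.4, 13.5 and 13.5 CPM in Luc siRNA libraries (log2 fold change -0.63, SE 0.0957, edgeR adjusted p = 6.9e-05). Both fell without overlap between the groups. Lbr, the lamin B receptor, is an inner nuclear membrane protein that is also a sterol reductase, and it went the other way. It had 206, 209 and 215 CPM in Crebl2 siRNA libraries, against 200, 184 and 173 CPM in Luc siRNA libraries (log2 fold change 0.18, SE 0.0556, edgeR adjusted p = 0.0168). Its groups did not overlap but lay close together, 11.3% of its words lie in other genes, mostly Dnah14 on the opposite strand, and it was not called without Luc siRNA replicate 2 (edgeR adjusted p = 0.0694) or Luc siRNA replicate 3 (edgeR adjusted p = 0.139). Tm7sf2, the endoplasmic reticulum reductase that shares the activity of Lbr, had 10, 9 and 11 counts in Crebl2 siRNA libraries, against 7, 7 and 5 in Luc siRNA libraries. Dhcr7, the reductase of the last step, had 5, 6 and 6 counts in Crebl2 siRNA libraries, against 7, 4 and 9 in Luc siRNA libraries. Neither had enough counts to be tested, and Tm7sf2 has 152 bases of its own. Dhcr7 has 869, of which 310 are in its main transcript of 2752 bases. The Cyp51 promoter (RefSeq, GRCm38.p6, chr5:4104648-4104947, minus strand) is shown as that of the gene of this step with the smallest p.
Cyp51: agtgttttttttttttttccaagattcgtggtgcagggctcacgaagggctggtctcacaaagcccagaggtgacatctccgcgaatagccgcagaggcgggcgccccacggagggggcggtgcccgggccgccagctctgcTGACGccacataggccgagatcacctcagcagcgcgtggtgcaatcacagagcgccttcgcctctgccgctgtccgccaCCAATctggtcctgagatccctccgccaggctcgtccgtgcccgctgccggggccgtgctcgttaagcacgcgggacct
Its matches are a CREB half-site 108 bases and an NF-Y box 29 bases before the start site.

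Among the genes that control SREBP, both INSIG genes fell and Scap rose. Insig1 (chr5:28071363-28078662, plus strand) had 27.6, 29.6 and 30.9 CPM in Crebl2 siRNA libraries, against 47.6, 47.7 and 45.5 CPM in Luc siRNA libraries (log2 fold change -0.68, SE 0.064, edgeR adjusted p = 4.51e-07). Insig2 (chr1:121304353-121332589, minus strand) had 43.4, 38.1 and 42.2 CPM in Crebl2 siRNA libraries, against 72.5, 73.2 and 75.7 CPM in Luc siRNA libraries (log2 fold change -0.84, SE 0.0609, edgeR adjusted p = 2.32e-08). INSIG1 and INSIG2 are related retention proteins, of which Insig1 is known as an SREBP target gene, and here both were well below every Luc siRNA library. Per kilobase of bases of their own, Insig2 had the higher value in both groups. It had 24.2 ± 1.61 CPM per kilobase under Crebl2 siRNA and 43.3 ± 0.992 CPM per kilobase under Luc siRNA (SD, n = 3 each). Insig1 had 10.9 ± 0.615 and 17.4 ± 0.463 CPM per kilobase under Crebl2 siRNA and Luc siRNA. Of the 1704 such bases of Insig2, 1448 are in the transcript that drew 99.9% of its counts. These values therefore do not rank the abundance of Insig1 and Insig2.

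Srebf2 (chr15:82147181-82205379, plus strand), the gene of SREBP2 itself, fell, by less than many of the enzymes did. It had 495, 486 and 436 CPM in Crebl2 siRNA libraries, against 608, 574 and 575 CPM in Luc siRNA libraries (log2 fold change -0.31, SE 0.0538, edgeR adjusted p = 0.000242). Its 95% interval, -0.42 to -0.20, does not reach those of Hmgcs1 (-0.84 to -0.60), Fdft1, Cyp51 (-0.90 to -0.67), Msmo1 (-0.93 to -0.67) or Nsdhl (-0.95 to -0.68), a difference that was not itself tested. Scap (chr9:110333288-110384950, plus strand) had 178, 160 and 147 CPM in Crebl2 siRNA libraries, against 125, 131 and 127 CPM in Luc siRNA libraries. The Crebl2 siRNA libraries were spread more widely, but each was above every Luc siRNA library (log2 fold change 0.35, SE 0.0624, edgeR adjusted p = 0.000348), and 13.1% of the words of Scap lie in other genes, mostly 5830462I19Rik on the opposite strand. Mbtps2, the site-2 protease, had 75.8, 80.9 and 87.9 CPM in Crebl2 siRNA libraries, against 104, 93.9 and 95.2 CPM in Luc siRNA libraries, and fell (log2 fold change -0.26, SE 0.0631, edgeR adjusted p = 0.00325). Mbtps1, the site-1 protease, had 29, 48 and 63 counts in Crebl2 siRNA libraries, against 32, 15 and 19 in Luc siRNA libraries. Its groups overlap and it is counted through 157 bases, and its call as higher (log2 fold change 1.08, SE 0.308, edgeR adjusted p = 0.0102) was lost without Crebl2 siRNA replicate 3 (0.81, edgeR adjusted p = 0.0631) or Luc siRNA replicate 2 (0.87, edgeR adjusted p = 0.0601). The promoters of Insig1 (RefSeq, GRCm38.p6, chr5:28071162-28071461, plus strand) and Srebf2 (chr15:82147019-82147318, plus strand) are shown because both genes are regulators that fell with the enzymes.
Insig1: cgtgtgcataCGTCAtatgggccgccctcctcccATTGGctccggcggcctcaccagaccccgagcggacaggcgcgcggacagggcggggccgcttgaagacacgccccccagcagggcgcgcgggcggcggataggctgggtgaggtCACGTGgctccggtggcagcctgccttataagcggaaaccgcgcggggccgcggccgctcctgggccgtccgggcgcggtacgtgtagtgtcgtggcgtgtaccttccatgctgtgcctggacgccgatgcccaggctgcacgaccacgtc
Srebf2: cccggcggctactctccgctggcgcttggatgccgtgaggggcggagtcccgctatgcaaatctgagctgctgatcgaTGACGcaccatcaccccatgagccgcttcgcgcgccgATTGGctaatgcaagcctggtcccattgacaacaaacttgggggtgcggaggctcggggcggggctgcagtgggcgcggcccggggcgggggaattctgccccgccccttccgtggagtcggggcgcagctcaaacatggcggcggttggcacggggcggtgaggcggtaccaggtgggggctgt
The Insig1 window holds a half-site at -240, an NF-Y box at -216 and an E-box at -101, and the Srebf2 window a half-site at -172 and an NF-Y box at -135.

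Of the 6 uptake, transport and storage genes, 2 were called lower and 0 higher, against 20.1% and 18.8% of all tested genes. The calls in this group are near the 38.9% called over all tested genes, and its median log2 fold change was -0.01. Stard4, a soluble carrier that moves cholesterol between membranes and a known SREBP target, had 60.2, 63.6 and 62.5 CPM in Crebl2 siRNA libraries, against 129, 110 and 111 CPM in Luc siRNA libraries. At 53.4% of the Luc siRNA level it had the lowest log2 fold change of the 31 tested members (-0.91, SE 0.0641, edgeR adjusted p = 1.71e-08). Npc2, the soluble lysosomal protein that lifts cholesterol out of digested lipoproteins (chr12:84754562-84773152, minus strand), had 344, 337 and 335 CPM in Crebl2 siRNA libraries, against 400, 445 and 426 CPM in Luc siRNA libraries, and fell (log2 fold change -0.32, SE 0.0493, edgeR adjusted p = 7.11e-05). Its membrane partner Npc1 had 123, 129 and 120 CPM in Crebl2 siRNA libraries, against 130 CPM in each Luc siRNA library. That difference is small and was not called (log2 fold change -0.07, 95% interval -0.17 to 0.04, edgeR adjusted p = 0.326).

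The remaining uptake and storage genes were not called, and their groups overlap. Scarb1, the receptor for high-density lipoprotein, had 5.55 to 6.16 CPM in Crebl2 siRNA libraries and 5.23 to 6.17 CPM in Luc siRNA libraries (log2 fold change 0.05, 95% interval -0.19 to 0.29). It is counted through only 154 bases of its own. Mylip, a ubiquitin ligase induced by LXR that marks lipoprotein receptors for degradation, had 8.56 to 9.95 CPM in Crebl2 siRNA libraries and 8.04 to 8.77 CPM in Luc siRNA libraries (log2 fold change 0.11, 95% interval -0.10 to 0.33). Soat1, which esterifies cholesterol for storage, had 3.01 to 3.89 CPM in Crebl2 siRNA libraries and 2.56 to 3.25 CPM in Luc siRNA libraries (log2 fold change 0.26, 95% interval -0.08 to 0.59). For Scarb1, Mylip and Soat1 the intervals still allow a rise of the size seen in Lbr.

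Both export pumps rose, against 18.8% of all tested genes called higher. Abca1, which loads cholesterol onto apolipoprotein particles (chr4:53030787-53159895, minus strand), had 474, 550 and 507 CPM in Crebl2 siRNA libraries, against 354, 277 and 297 CPM in Luc siRNA libraries (165% of the Luc siRNA level, log2 fold change 0.72, SE 0.0751, edgeR adjusted p = 1.35e-06). Abcg1, which passes cholesterol to mature high-density lipoprotein (chr17:31057675-31117988, plus strand), had 19.7, 23.0 and 19.0 CPM in Crebl2 siRNA libraries, against 12.2, 10.4 and 11.2 CPM in Luc siRNA libraries (183%, log2 fold change 0.87, SE 0.0939, edgeR adjusted p = 1.97e-06). For each pump Crebl2 siRNA replicate 2 was the highest library and Luc siRNA replicate 1 the highest of its group. Without Crebl2 siRNA replicate 2, the library with the low mitochondrial share, the log2 fold changes were 0.67 for Abca1 and 0.79 for Abcg1, and both were still called. Neither LXR gene could be tested. Nr1h2 had 1 count over the 6 libraries, from 5 bases of its own, and Nr1h3 had 3, from 192. The Abca1 promoter (RefSeq, GRCm38.p6, chr4:53159846-53160145, minus strand) is shown as that of the best counted gene that rose.
Abca1: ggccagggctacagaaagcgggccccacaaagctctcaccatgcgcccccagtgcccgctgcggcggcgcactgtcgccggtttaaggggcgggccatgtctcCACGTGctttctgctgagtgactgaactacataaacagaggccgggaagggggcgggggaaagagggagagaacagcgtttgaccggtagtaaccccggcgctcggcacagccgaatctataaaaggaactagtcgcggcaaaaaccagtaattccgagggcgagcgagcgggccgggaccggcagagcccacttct
It held an E-box starting 147 bases before the start site and no NF-Y box or half-site.

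Of the 36 members, 29 had a RefSeq promoter in the table used. The NF-Y box CCAAT was present in 22 of the 29, against 42.4% of the 8333 tested genes that had one. It was found in 13 of 15 genes called lower, 1 of 4 called higher and 8 of 10 not called or not tested. The exception among the genes that rose was Lbr, and Acat2 and Mbtps2 were the lowered genes without it. The half-site TGACG was in 13 of the 29, 8 of them called lower, against 34.6% of tested genes, and the full CREB site TGACGTCA was in 0, against 3.50%. An E-box was in 6 of the 29, against 11.4%, and the sterol element TCACNCCAC in 1, against 1.39%. The classical sterol regulatory element of 10 bases and an exact LXR direct repeat were in 0 of these windows, and in 0.0913% and 0.0152% of all 32851 promoters. Sterol elements vary in sequence, so an absent match says only that these letters are not in the window.

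**Figure D3:**
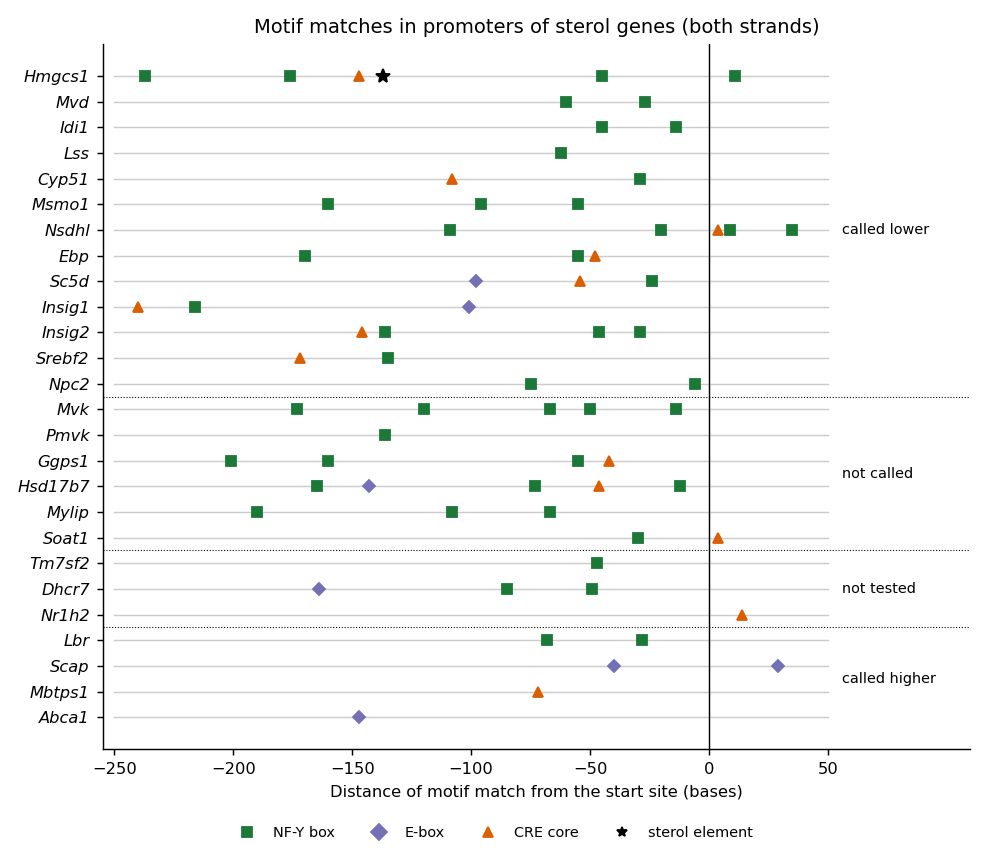
Positions of motif matches on either strand in the promoters of 26 sterol genes, as distance in bases from the start site, grouped by call. NF-Y boxes lie within 100 bases before the start site in 11 of the lowered genes. They also do in Lbr, which rose, and in Soat1, Hsd17b7, Mvk, Dhcr7, Ggps1, Mylip and Tm7sf2, not called or not tested. The share of all promoters with a box this close was not measured. The sterol element TCACNCCAC appears only in Hmgcs1.

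A 7-base word, GAAATGT, is commoner in the 3' untranslated regions of lowered genes in these data, and several members hold it. The word was chosen with earlier results of these data known, so the shares below are a description and not independent evidence. They were not adjusted for the length of the regions, which were longer in lowered genes. Among all tested genes it was in 29.2% of those called lower (2180 genes, median region of 1387 bases), 16.5% of those not called (5784 genes, 996 bases) and 11.9% of those called higher (1890 genes, 986.5 bases). Among the members it was in 7 of 18 called lower, 1 of 8 not called and 0 of 5 called higher. The 7 were Lss, Cyp51, Nsdhl, Insig1, Insig2, Mbtps2 and Stard4, the last with 3 copies, and the 1 not called was Ggps1. Members without the word included 11 called lower and 5 called higher of 23, with a median log2 fold change of -0.24, and the 8 with it had a median of -0.73. Hmgcs1, Fdft1, Sqle and Msmo1 are lowered genes that lack it. The word also occurs once in the Crebl2 transcript, outside its 3' untranslated region. The sites are shown, with the word in capitals, to let the flanking bases be compared with that occurrence, and the Crebl2 bases span an exon junction (chr6:134849285-134851090, plus strand).
Crebl2: agaggaactgGAAATGTacaagcagtg
Cyp51: tgtgtcctttGAAATGTtaactggagc
Nsdhl: tgaactcattGAAATGTattcttgaag
Insig1: tttttggaggGAAATGTttgaagtaaa
Insig2: gaacaatttaGAAATGTaatgaaagag
The member sites lie at chr5:4082626-4082652 (Cyp51, minus strand), chrX:72958416-72958442 (Nsdhl, plus strand), chr5:28078170-28078196 (Insig1, plus strand) and chr1:121305545-121305571 (Insig2, minus strand). The unbroken run shared with Crebl2 was 7 bases for Cyp51, Lss and Ggps1, 8 for Nsdhl, Insig1, Insig2 and Mbtps2, and 8, 7 and 9 for the 3 sites of Stard4. siRNAs can lower transcripts that pair with a short part of their guide strand, but the guide sequences are not given in the sources used here, and the part of this word in the falls was not tested.

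Related genes, in lists also chosen with earlier results of these data known, gave both falls and rises. The 98 further genes, in 8 lists of related function, included 69 tested, of which 27 were called lower and 6 higher (20.1% and 18.8% of all tested genes), with a median log2 fold change of -0.13. In the supply of acetyl-CoA, 3 of 5 fell: the mitochondrial citrate carrier Slc25a1 (log2 fold change -0.59), the acetoacetyl-CoA synthetase Aacs (-0.42) and the mitochondrial thiolase Acat1 (-0.17). Of 10 tested lipogenic SREBP target genes, 6 fell and 1 rose, and the desaturases Fads1 (-0.68), Scd1 (-0.64) and Fads2 (-0.51) had the smallest p. The 1 that rose was Srebf1, the gene of SREBP1, named after its value was seen (464 to 578 CPM under Crebl2 siRNA and 456 to 475 CPM under Luc siRNA, log2 fold change 0.18, edgeR adjusted p = 0.0353). Its groups overlap, and it was no longer called without any 1 of 5 libraries.

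Non-sterol branches of the mevalonate pathway were mostly not called, as were most of all tested genes. The counts of each list below stand beside 20.1% of all tested genes called lower and 18.8% called higher. Of 13 tested genes for dolichol, ubiquinone and prenyl transfer, 2 fell, the prenylcysteine methyltransferase Icmt (log2 fold change -0.43) and the farnesyltransferase subunit Fnta (-0.14). By edgeR, DESeq2 and limma-voom 0 rose, and 3 of the 13 had an unadjusted edgeR p under 0.05, while without any 1 library other than Crebl2 siRNA replicate 3 only 1 of them was called lower. By edgeR 1 was called higher without Crebl2 siRNA replicate 1 or Luc siRNA replicate 1, with library size alone, with no filter and with the filter of 1 CPM in 3 libraries. Of 10 tested partners in sterol-regulated degradation at the endoplasmic reticulum, 5 fell and 2 rose, among them Pgrmc1 (-0.42) and Erlin2 (-0.37) lower and the ubiquitin ligase Rnf145 (0.35) higher. With the replicate block, with no filter, or without any 1 library other than Crebl2 siRNA replicate 3, 1 of them was called higher. Of 13 tested genes of non-vesicular sterol transport, 5 fell and 2 rose, and the oxysterol binding protein gene Osbp (-0.43) and the membrane contact genes Vapa (-0.27) and Vapb (-0.26) were among those that fell. Without Luc siRNA replicate 3, with the replicate block or with library size alone, 3 were called lower. Of 7 other lipoprotein receptor genes, 3 fell and 1 rose. The receptors Lrp8 (-0.50) and Vldlr (-0.32) fell. The endocytic receptor Lrp1 had 1120, 1650 and 1140 CPM in Crebl2 siRNA libraries, against 1050, 835 and 859 CPM in Luc siRNA libraries (log2 fold change 0.51, edgeR adjusted p = 0.00202), a call that DESeq2 did not make. Of 5 tested oxysterol and bile acid genes, 3 fell: Amacr (-0.63), Cyp27a1 (-0.33) and Cyp39a1 (-0.26). Of 11 listed LXR partners and other LXR targets, 5 could not be tested. Of the 6 tested, 0 were called by edgeR, DESeq2 or limma-voom, and 1 had an unadjusted edgeR p under 0.05. Without Crebl2 siRNA replicate 1 or Luc siRNA replicate 1, 1 was called lower. Lpcat3, an LXR target in liver that was chosen after its value was seen, had a log2 fold change of 0.03 (95% interval -0.07 to 0.13).

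**Figure D4:**
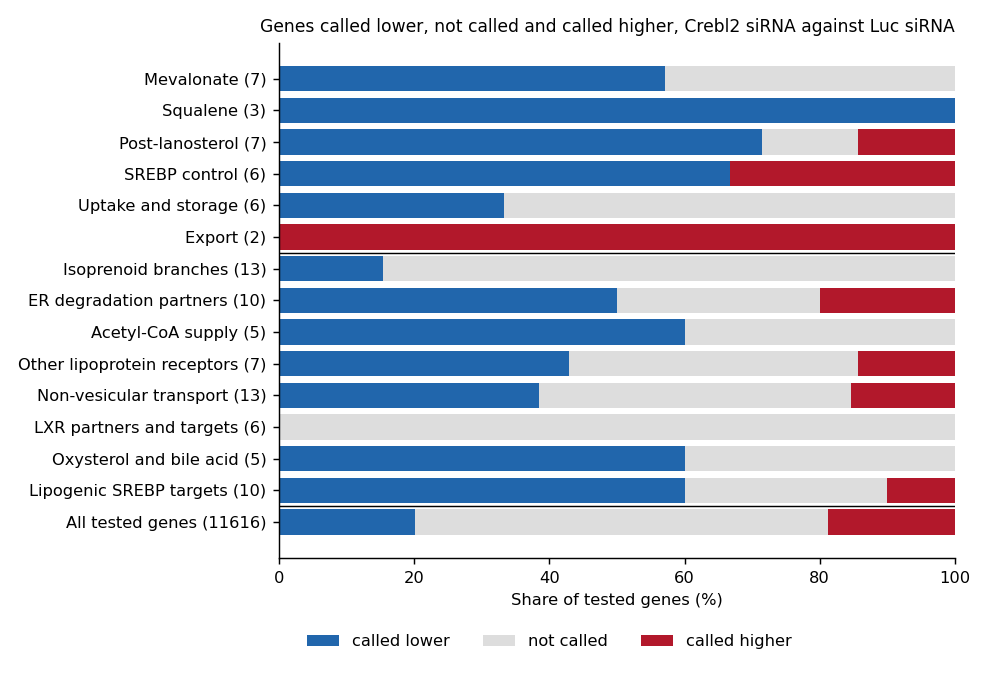
Share of tested genes called lower, not called and called higher (%, edgeR adjusted p under 0.05) in each step of the sterol genes, in the 8 related lists and in all 11616 tested genes; the number tested is in brackets. Squalene genes are all lower, both tested export genes are higher, and 0 of the 6 tested LXR partners and targets is called.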

How the data were processed

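Gene expression was measured in 3 Crebl2 siRNA and 3 Luc siRNA libraries, grouped by the labels. The deposited values are whole-number counts for 58611 Ensembl transcripts, deposited as counted and not normalised. Trim Galore, TopHat, HTSeq and the builds mm9 and GRCm38 are named, without versions or roles, in the submitters' processing notes, which do not state the strand setting of the counter. Rows were named by GENCODE M21 (58264 matched) and summed per gene. The sum is mostly 1 row, since 33 of the 36 members drew over 98% of their counts from 1. Only 0.0235% of counts fell on transcripts lacking a base of their own, so 8 members with under 200 such bases are counted in small part.

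Genes were tested with edgeR 4.0.16 (R 4.3.3), quasi-likelihood test, two-sided, with TMM scaling, filterByExpr and Benjamini-Hochberg adjustment over 11616 genes. CPM values use TMM-scaled library sizes, and SE and 95% intervals come from the test statistic. The procedure was tested on simulated counts. Alternatives were other scalings and filters, DESeq2 1.42.0, limma-voom (limma 3.58.1), a replicate block, the main row alone and each library left out.

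All members were named, with Crebl2, up to 3 called genes with the smallest p in each related list, and 3 hepatocyte markers. The members, lists and the 3' word were chosen with earlier results of these data known, and the E-box and the half-site were added to the motifs after the counts were seen. Promoters are RefSeq's (GRCm38.p6), a gene with several counting once. Shared bases were measured as 50-base words of a member's main transcript found in transcripts of other genes, on either strand.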

Additional observations from a re-analysis of the deposited data

How the results depend on the processing

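Over the 14 alternatives, 16 to 18 of the 36 members were called lower and 3 to 5 higher, and 26 of the 31 tested members kept both direction and side of the threshold wherever they were tested (Pmvk was not tested with the filter of 1 CPM in 3 libraries). Acat2 was not called in 12 of them, and its adjusted p (edgeR, DESeq2 or limma) ran from 0.0188 to 0.208 over all 14. Idi1, Lbr and Mbtps1 each lost their call without 1 or 2 single libraries, as given above, and Scarb1, never called, had log2 fold changes of -0.0106 (without Luc siRNA replicate 2) to 0.11 (without Luc siRNA replicate 1). With single libraries left out, members called higher ranged from 3 to 5, mevalonate genes called lower from 2 to 4, post-lanosterol genes called higher from 0 to 1 and SREBP control genes called higher from 1 to 2. Same-numbered libraries did not deviate together (correlations -0.206, -0.0711 and -0.123), so the numbers were not taken to pair them, and with the replicate block 17 members were lower and 5 higher, Acat2 (-0.241) being the call that was lost. Scaled by library size alone, which moved the median of all genes from 0.005 to 0.054, 58.8% of all calls were higher, against 48.3% with TMM, and 17 members were lower and 5 higher. With no filter Fdps was called lower. Few counts limit some members: 5 could not be tested, and Mvk, Pmvk, Idi1 and Mbtps1 had at most 63 counts in a library. Many of these have few bases of their own: Nr1h2 5, Fdps 108, Mvk 131, Tm7sf2 152, Mbtps1 157 and Nr1h3 192. Pmvk has 736, Dhcr7 869 and Idi1 3027. The part of depth in these low counts was not tested.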
